A study of Homo sapiens with 12 samples.

Results

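The genes described here encode the machinery that rejoins broken DNA ends. They are the Ku subunits XRCC6 and XRCC5, the kinase PRKDC, the nuclease DCLRE1C, the ligation factors LIG4, XRCC4 and NHEJ1, the pathway-choice factors TP53BP1 and RIF1, and the polymerase POLQ. They were taken by gene symbol from the deposited expression table, and all 10 were found among its 58735 genes. The cells were TFK1, an established human cholangiocarcinoma line, labelled wild type. The groups were irradiated cells (6 Gy), cells given nab-paclitaxel (1.62 ng/ml), cells given the same dose of both, and control cells given neither. RNA was taken 24 h after treatment in every group, and each group had 3 libraries labelled as biological replicates. Nab-paclitaxel is an albumin-bound form of paclitaxel, which stabilises microtubules and holds cells in mitosis, and per the series' design text the study asked how it sensitises these cells to radiation. Every library comes from this single line.

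In percent of the control mean, POLQ showed the largest falls among the calls. Its mean was 48.0% of control after radiation and 37.7% after the combination, with each fall called. RIF1 fell to 66.6% of control with nab-paclitaxel and to 51.15% with the combination. The nab-paclitaxel call was lost in 14 of 24 alternative fits, and the combination call in 0. XRCC6 rose to 146% of control with nab-paclitaxel and to 131% with the combination. XRCC5 was lower after radiation than after either treatment that contained the drug. PRKDC, LIG4, XRCC4, DCLRE1C and TP53BP1 passed no test between groups, and NHEJ1 was too low to be tested.

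Classical non-homologous end joining starts when the Ku ring, formed by XRCC6 (Ku70) and XRCC5 (Ku80), slides onto a broken end and recruits PRKDC, the catalytic subunit of DNA-PK. DCLRE1C (Artemis) opens hairpins and trims ends, and LIG4 with its partner XRCC4 seals the break with help from NHEJ1 (XLF). TP53BP1 binds chromatin beside the break and, through RIF1, keeps ends from being resected, which favours end joining over homologous recombination. POLQ, DNA polymerase theta, carries out a separate, error-prone route that anneals short microhomologies on resected ends. Ionising radiation makes the breaks that these routes repair.

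The values are FPKM, fragments per kilobase of gene length on a depth scale common to the libraries. They rest on 14840283 to 17992242 fragments per library. Values after ± are SD for FPKM and SE for log2 fold changes, with n = 3 libraries in every group. Log2 fold changes are on the log2(FPKM + 1) scale, which understates changes of low genes such as POLQ. A gene rose or fell where limma, fitted on the 13609 genes averaging 1 FPKM or more, gave an adjusted p under 0.05. Nothing in the labels says that replicates came from separate cultures beyond the term biological replicate, so p-values measure the spread between these libraries. Nab-paclitaxel 1, combination 2 and control 2 deviated from their groups in the same direction across genes: their deviations correlated pairwise at 0.332 to 0.543, over genes that are not independent replicates. These 3 libraries were picked from these same data. Fits without them hold less spread by that choice, so adjusted p from those fits can be too low. KRT19 was the highest of 10 biliary epithelial markers at 419 FPKM, and 7 of the 10 reached 1 FPKM. The list summed to 1107 to 1184 FPKM per library after radiation, 1187 to 1336 with nab-paclitaxel, 1349 to 1707 with the combination and 720.3 to 907.1 in control, so every treated library lay above control, and the part of this in the results was not tested. Of 10 fibroblast markers COL1A1 (5.70 FPKM) and ACTA2 reached 1 FPKM, with sums of 8.92 to 9.87 FPKM after radiation, 5.77 to 6.81 with nab-paclitaxel, 6.87 to 8.10 with the combination and 6.91 to 8.63 in control. None of 10 macrophage markers and none of 10 lymphocyte and endothelial markers averaged 1 FPKM, and none was at 0 throughout. Per library the macrophage list summed to at most 2.795 FPKM in treated cells and 1.34 FPKM in control, and the lymphocyte and endothelial list to at most 1.17 FPKM and 0.925 FPKM. In bulk RNA, fewer cells of a type and less RNA per cell cannot be told apart.

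To show the sequence that lies at the start of genes whose levels moved, the promoter windows of POLQ, RIF1 and XRCC6 are printed from RefSeq (GRCh38.p14). Each runs from 250 bases before to 50 bases after the RefSeq start, on the strand of the gene. Capitals mark matches on either strand to 3 short promoter motifs, which do not overlap one another here. These are the E2F elements TTTCGCGC and TTTGGCGC, the cell cycle homology region element TTTGAA, and the box CCAAT. A match on the opposite strand reads as its reverse complement.
POLQ, chr3:121545939-121546238, minus strand: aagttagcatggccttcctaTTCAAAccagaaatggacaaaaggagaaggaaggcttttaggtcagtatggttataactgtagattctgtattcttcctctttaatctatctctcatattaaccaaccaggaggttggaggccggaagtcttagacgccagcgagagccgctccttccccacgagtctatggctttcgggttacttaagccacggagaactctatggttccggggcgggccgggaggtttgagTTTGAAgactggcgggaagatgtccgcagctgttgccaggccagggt
RIF1, chr2:151409652-151409951, plus strand: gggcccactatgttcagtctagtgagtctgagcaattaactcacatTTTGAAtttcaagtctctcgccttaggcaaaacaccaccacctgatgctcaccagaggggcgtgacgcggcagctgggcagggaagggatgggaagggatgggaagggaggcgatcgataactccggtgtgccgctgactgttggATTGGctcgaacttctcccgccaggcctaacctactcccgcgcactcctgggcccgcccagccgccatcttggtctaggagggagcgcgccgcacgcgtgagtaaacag
XRCC6, chr22:41621045-41621344, plus strand: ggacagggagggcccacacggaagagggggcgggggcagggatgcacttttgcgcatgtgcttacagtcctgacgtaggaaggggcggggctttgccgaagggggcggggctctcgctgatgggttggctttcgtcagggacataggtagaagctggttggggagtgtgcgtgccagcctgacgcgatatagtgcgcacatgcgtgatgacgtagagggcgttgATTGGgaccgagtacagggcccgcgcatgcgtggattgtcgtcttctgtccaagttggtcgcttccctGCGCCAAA
The POLQ window held TTTGAA on both strands, from base -230 (as its reverse complement) and from base 4, counting the RefSeq start as 1 and the base before it as -1, and neither CCAAT nor an E2F element. The RIF1 window held TTTGAA from base -204 and, as its reverse complement, CCAAT from base -59. The XRCC6 window held CCAAT from base -26 and TTTGGCGC from base 43, both as reverse complements. Of all 35116 promoter windows of this length, 1.15% held an E2F element, 15.2% held TTTGAA and 34.6% held CCAAT. Windows were taken for 8 of the 10 genes. None was taken for XRCC5, whose level also moved, and PRKDC was left out of the search. The RefSeq starts lie inside the genes as the deposited table gives them, by 653 bases for POLQ, 19 for RIF1 and 176 for XRCC6, so the windows show no sequence around the outermost start of POLQ in that table. A match is a stretch of letters and was not tested as a binding site.

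Expression ranged widely across the 10 genes. In control cells XRCC6 was highest at 96.8 ± 9.15 FPKM, followed by XRCC5 at 69.9 ± 6.60 FPKM and PRKDC at 30.2 ± 2.01 FPKM. This order of the DNA-PK subunits in FPKM held in all 4 groups, and no library of one overlapped those of the next. FPKM divides by gene length, which was 3288 bases for XRCC6, 5463 for XRCC5 and 15417 for PRKDC. In fragments the order was reversed in each control library, at 5566, 6002 and 6899 in control 1. Whether the lengths match the transcripts expressed here was not tested, for these or the other genes. Next by FPKM in control cells came RIF1 at 7.57 ± 1.49 FPKM, LIG4 at 6.39 ± 1.51 FPKM and TP53BP1 at 6.38 ± 0.632 FPKM, whose libraries overlapped. XRCC4 at 3.84 ± 0.632 FPKM, POLQ at 2.93 ± 0.216 FPKM and DCLRE1C at 2.31 ± 0.175 FPKM followed without overlap. NHEJ1 was last at 0.317 ± 0.0968 FPKM. The order below PRKDC changed with treatment. RIF1 was at rank 7 with nab-paclitaxel and with the combination, against rank 4 in control. POLQ ranked below DCLRE1C after radiation and after the combination, with overlapping libraries in the combination, and above it in control. With nab-paclitaxel TP53BP1, XRCC4, LIG4 and RIF1 lay between 5.04 and 5.41 FPKM on average, and each overlapped its neighbour in rank.

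**Figure D1:**
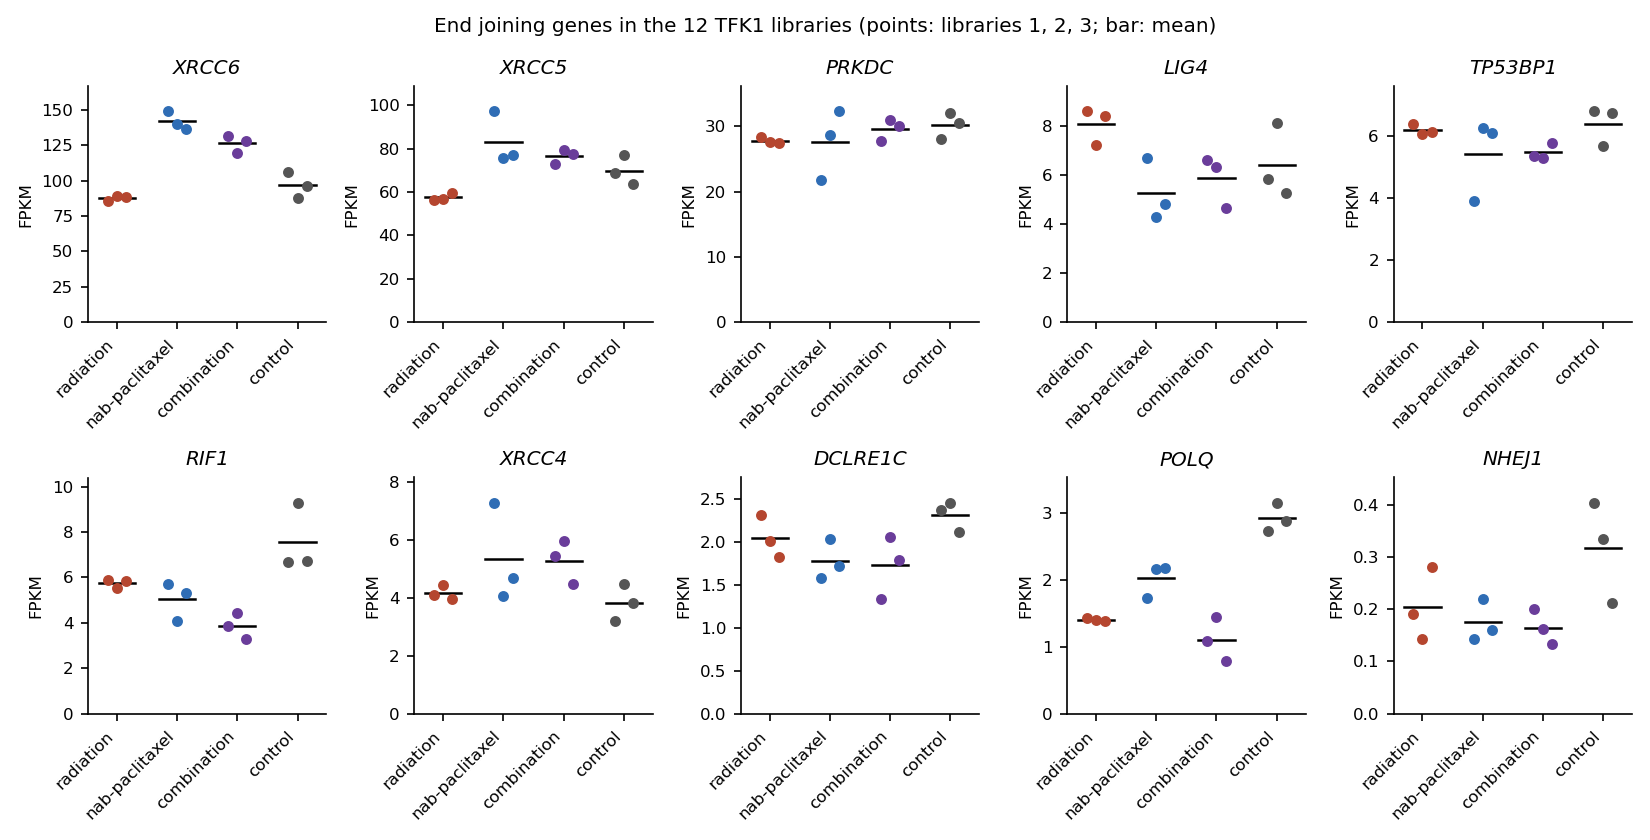
FPKM of the 10 end joining genes in each of the 12 libraries, with 1 panel and its own axis from 0 per gene, points for libraries 1, 2 and 3 of each group and bars for group means. POLQ lies below every control library in all 9 treated libraries, and XRCC6 lies above every control library in the 6 libraries that received nab-paclitaxel.

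XRCC6, the Ku70 subunit, rose wherever the drug was given. It had 148.9, 139.9 and 136.3 FPKM with nab-paclitaxel, against 106.3, 88.0 and 96.2 FPKM in control. With the combination it had 131.7, 119.5 and 128.1 FPKM. After radiation it had 85.4, 89.0 and 88.5 FPKM, so the 6 libraries with the drug lay above all 6 without it. How many of all genes separate in this way was not counted. The log2 fold change was 0.55 ± 0.08 for nab-paclitaxel against control (limma adjusted p = 0.00582). It was 0.38 ± 0.08 for the combination against control (adjusted p = 0.00758) and 0.52 ± 0.08 for the combination against radiation (adjusted p = 0.00586). Radiation against nab-paclitaxel gave -0.69 ± 0.08 (adjusted p = 6.20e-04). Radiation against control gave -0.14 with a 95% interval of -0.32 to 0.05 (adjusted p = 0.410). Quantile normalization lowered the combination against radiation to 0.28 (adjusted p = 0.0547) and turned radiation against control to 0.04. It also gave smaller values of 0.33 for nab-paclitaxel against control (adjusted p = 0.0295) and -0.29 for radiation against nab-paclitaxel (adjusted p = 0.0319). Without the 3 deviating libraries radiation against control was -0.20 (adjusted p = 0.0270). With only the control and nab-paclitaxel libraries in the fit the adjusted p of nab-paclitaxel against control was 0.120. Among genes averaging 5 FPKM or more, 77.6% of the nab-paclitaxel calls against control were higher, with a median log2 fold change of 0.10. For the combination against radiation 77.0% were higher (median 0.09), and for radiation against nab-paclitaxel 17.5% (median -0.13). The part of this shift in the XRCC6 and XRCC5 values was not tested. The 5 annotated XRCC6 pseudogenes averaged at most 0.0415 FPKM.

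XRCC5, the Ku80 subunit, was lower after radiation than in either group that received the drug. It had 56.4, 56.9 and 59.4 FPKM after radiation, against 97.2, 75.7 and 76.9 FPKM with nab-paclitaxel. The combination gave 72.7, 79.2 and 77.3 FPKM, and control gave 69.0, 76.9 and 63.8 FPKM. The 3 radiation libraries were the lowest of the 12. The log2 fold change of the combination against radiation was 0.40 ± 0.10 (limma adjusted p = 0.0409), and that of radiation against nab-paclitaxel was -0.52 ± 0.10 (adjusted p = 0.00840). Against control, radiation gave -0.27 (95% interval -0.50 to -0.04, adjusted p = 0.171), nab-paclitaxel 0.25 (0.02 to 0.47, adjusted p = 0.161) and the combination 0.13 (-0.10 to 0.36, adjusted p = 0.398). Under quantile normalization the combination against radiation was 0.22 (adjusted p = 0.133) and radiation against nab-paclitaxel was -0.18 (adjusted p = 0.172). The combination against radiation also did not pass without control 1, or without any single radiation or combination library (adjusted p 0.0560 to 0.142), with the replicate number as a block (adjusted p = 0.0756) or without a filter (adjusted p = 0.133), while radiation against control passed without nab-paclitaxel 1 in the fit (adjusted p = 0.0463). Mitochondrial mRNA took at least 12.4% of fragments in the radiation libraries, a level that no nab-paclitaxel library reached (lowest 9.23%). Control libraries at 11.2% to 13.6% and combination libraries at 9.81% to 12.9% overlapped the radiation libraries. The part of mitochondrial mRNA in the Ku values was not tested.

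The ratio of XRCC6 to XRCC5, whose proteins pair in the Ku ring, was above 1 in every library. It ran from 1.49 to 1.56 after radiation, from 1.53 to 1.85 with nab-paclitaxel and from 1.51 to 1.81 with the combination. In control libraries it was 1.54, 1.14 and 1.51, the low value being that of control 2. The ratio was not tested. It rests on FPKM, with gene lengths of 3288 bases for XRCC6 and 5463 for XRCC5. In fragments XRCC5 lay above XRCC6 in every control and radiation library, at 6002 against 5566 in control 1. The order in fragments varied between libraries that received the drug.

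PRKDC, the kinase that Ku recruits, passed no test between groups. It had 28.3, 27.5 and 27.5 FPKM after radiation, 21.7, 28.6 and 32.3 FPKM with nab-paclitaxel, and 27.7, 30.9 and 30.0 FPKM with the combination. Control libraries had 28.1, 32.1 and 30.6 FPKM. Each treated group overlapped control, and the nab-paclitaxel libraries spanned every other value. The log2 fold changes against control were -0.12 for radiation (95% interval -0.38 to 0.15), -0.15 for nab-paclitaxel (-0.41 to 0.12) and -0.03 for the combination (-0.30 to 0.23), and none passed (limma adjusted p 0.675, 0.472 and 0.879).

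DCLRE1C, the Artemis nuclease that PRKDC activates, had 2.31, 2.01 and 1.82 FPKM after radiation. It had 1.58, 2.03 and 1.72 FPKM with nab-paclitaxel and 1.33, 2.05 and 1.79 FPKM with the combination, against 2.36, 2.45 and 2.11 FPKM in control. The 6 libraries with the drug lay below every control library. The log2 fold changes against control were -0.25 ± 0.12 for nab-paclitaxel (limma adjusted p = 0.194) and -0.29 ± 0.12 for the combination (adjusted p = 0.102), and neither passed. The gene shares 6957 bases of its extent with SUV39H2 on the opposite strand, at 4.91 FPKM, and whether counting used the strand is not given in the sources used here.

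LIG4, the ligase of this pathway, had its highest mean after radiation. It had 8.59, 7.23 and 8.40 FPKM after radiation, against 6.69, 4.30 and 4.83 FPKM with nab-paclitaxel. The combination gave 6.61, 6.31 and 4.64 FPKM, and control gave 5.82, 8.11 and 5.25 FPKM. The radiation libraries lay above all libraries that received the drug and overlapped control through control 2. Radiation against nab-paclitaxel gave 0.55 ± 0.17, just outside the threshold (limma adjusted p = 0.0530). Radiation against control gave 0.31 (95% interval -0.07 to 0.69, adjusted p = 0.367). Without the 3 deviating libraries these values were 0.70 (adjusted p = 0.00553) and 0.47 (adjusted p = 0.0341), and radiation against nab-paclitaxel passed in 11 of 24 alternatives. These were leaving out control 2, nab-paclitaxel 1 or combination 3 alone (adjusted p 0.0273 to 0.0496) or all 3 deviating libraries, and 7 settings that left out no library of either group: a filter at 5 FPKM, the 3 other scalings, protein-coding genes only, voom and only the groups compared (adjusted p 0.0286 to 0.0493).

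XRCC4, the scaffold that holds LIG4, had 4.10, 4.45 and 3.95 FPKM after radiation and 7.29, 4.08 and 4.67 FPKM with nab-paclitaxel. It had 5.45, 5.95 and 4.47 FPKM with the combination, against 3.21, 4.48 and 3.83 FPKM in control. The value of nab-paclitaxel 1 stood above all others. The log2 fold change against control was 0.37 ± 0.17 with nab-paclitaxel (limma adjusted p = 0.191) and 0.38 ± 0.17 with the combination (adjusted p = 0.128). Without nab-paclitaxel 1 in the fit the combination passed (adjusted p = 0.0340). XRCC4 shares 366 bases with TMEM167A on the opposite strand, which was at 34.3 FPKM. The ratio of XRCC4 to LIG4, looked at after the values were seen and not tested, ran from 0.949 to 1.09 with nab-paclitaxel and from 0.824 to 0.962 with the combination. It ran from 0.470 to 0.616 after radiation and from 0.552 to 0.730 in control, so libraries with and without the drug did not overlap. The other ratios computed, XRCC6 to XRCC5, PRKDC to XRCC5 and RIF1 to TP53BP1, did overlap between libraries with and without the drug. How often other gene pairs separate in this way was not counted.

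NHEJ1, which bridges XRCC4 and LIG4 across the break, was close to the limit of detection. Its summed fragments were 33 after radiation, 28 with nab-paclitaxel, 26 with the combination and 46 in control. The exact Poisson 95% intervals, which cover counting error only, were 22.7 to 46.3, 18.6 to 40.5, 17.0 to 38.1 and 33.7 to 61.4 in the same order, and each treated interval overlapped that of control. The combination libraries, at 0.200, 0.162 and 0.133 FPKM, lay below the control libraries, at 0.404, 0.335 and 0.213 FPKM, and their mean was 52.0% of control. Radiation and nab-paclitaxel libraries overlapped control. Single libraries had 7 to 20 fragments. In a fit without the filter none of its changes passed (limma adjusted p 0.808 for radiation, 0.611 for nab-paclitaxel and 0.399 for the combination against control). That fit gave -0.18 for the combination, with an unadjusted 95% interval of -0.35 to -0.000156, on the log2(FPKM + 1) scale, which compresses the change of a gene at this level. NHEJ1 also shares 85537 bases of its extent with another annotated gene on its strand, AC068946.1, at 0.321 FPKM, and the counting could split fragments between them.

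TP53BP1, the chromatin reader that shields broken ends, had 6.38, 6.04 and 6.12 FPKM after radiation and 3.91, 6.25 and 6.07 FPKM with nab-paclitaxel. It had 5.34, 5.29 and 5.76 FPKM with the combination, against 6.78, 5.65 and 6.72 FPKM in control. The low value was that of nab-paclitaxel 1, and every treated group overlapped control. The log2 fold changes against control were -0.04 (95% interval -0.33 to 0.25), -0.22 (-0.51 to 0.07) and -0.19 (-0.48 to 0.10) for radiation, nab-paclitaxel and the combination. Their limma adjusted p were 0.927, 0.311 and 0.331. Without the 3 deviating libraries the combination against control was -0.24 (adjusted p = 0.0141).

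RIF1, the effector that TP53BP1 recruits and that also times DNA replication, fell most under the combination. It had 3.87, 4.43 and 3.31 FPKM with the combination, against 6.69, 9.29 and 6.72 FPKM in control. With nab-paclitaxel it had 5.70, 4.08 and 5.33 FPKM, and after radiation 5.89, 5.52 and 5.83 FPKM. All 9 treated libraries lay below the lowest control library. The log2 fold change was -0.81 ± 0.14 for the combination (limma adjusted p = 0.00211) and -0.50 ± 0.14 for nab-paclitaxel (adjusted p = 0.0464). Radiation gave -0.33 ± 0.14 (95% interval -0.63 to -0.03), which did not pass after adjustment (adjusted p = 0.210), and the combination against radiation gave -0.48 ± 0.14 (adjusted p = 0.0577). The combination against radiation passed in 10 of 24 alternatives: without control 2, nab-paclitaxel 1, nab-paclitaxel 2 or the 3 deviating libraries, with TPM scaling, size factors, protein-coding genes only or a filter at 5 FPKM, by voom and with only the groups compared (adjusted p 0.00517 to 0.0477). The fall under the combination passed with each library left out, whereas the fall under nab-paclitaxel passed, of the fits with 1 library left out, only without combination 2 (adjusted p 0.0522 to 0.128 without any other). It did not pass with the replicate number as a block (adjusted p = 0.0802), without a filter (adjusted p = 0.203) or with only the groups compared (adjusted p = 0.197). Without the 3 deviating libraries RIF1 fell by 0.44 (adjusted p = 0.0319) with nab-paclitaxel and by 0.75 (adjusted p = 0.00129) with the combination.

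POLQ, the polymerase of microhomology-mediated joining, fell after both treatments that included radiation. It had 1.43, 1.40 and 1.38 FPKM after radiation, against 2.73, 3.16 and 2.89 FPKM in control. With the combination it had 1.08, 1.45 and 0.783 FPKM, and with nab-paclitaxel 1.74, 2.18 and 2.19 FPKM. No treated library reached the lowest control library, and the nab-paclitaxel libraries lay between control and the 6 irradiated ones. The log2 fold change was -0.71 ± 0.12 for radiation (limma adjusted p = 0.00667) and -0.91 ± 0.12 for the combination (adjusted p = 5.10e-04). With a pseudocount of 0.1 the same falls were -1.01 and -1.37. Both passed with each library left out. Without the 3 deviating libraries, which were picked from these same data, the falls were -0.66 and -0.98.

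Nab-paclitaxel alone gave -0.38 ± 0.12 for POLQ (95% interval -0.64 to -0.11), which did not pass (limma adjusted p = 0.0732). It passed in 3 of 23 alternatives, without combination 2 (adjusted p = 0.0497), with protein-coding genes only (adjusted p = 0.0469) and by voom (-0.53, adjusted p = 0.0484). The combination against nab-paclitaxel gave -0.54 ± 0.12 (adjusted p = 0.0325). That call was lost without any single radiation library, nab-paclitaxel 2 or 3, or combination 1 or 3 (adjusted p 0.0572 to 0.125), with the replicate number as a block (adjusted p = 0.0550), with only the groups compared (adjusted p = 0.178), without a filter (adjusted p = 0.108) and with TPM scaling (adjusted p = 0.0540). The combination against radiation was -0.20 with an interval of -0.47 to 0.06 (adjusted p = 0.319). This value was -0.36 with a pseudocount of 0.1, -0.40 by voom and -0.08 after quantile normalization, none of which passed, and it passed without the 3 deviating libraries (-0.32, adjusted p = 0.0347).

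Counted over the 9 genes that were tested, 1 changed with radiation against control (POLQ, lower), against 5.93% of all genes tested. With nab-paclitaxel 2 changed (XRCC6 higher, RIF1 lower), against 8.82% of all genes. With the combination 3 changed (XRCC6 higher, RIF1 and POLQ lower), against 22.9%. The combination against radiation gave 2 (both Ku subunits, higher; 7.75% of all genes), the combination against nab-paclitaxel 1 (POLQ, lower; 3.92%), and radiation against nab-paclitaxel 2 (both Ku subunits, lower; 16.1%). Over all 4 groups the limma F test called XRCC5, XRCC6, RIF1 and POLQ (adjusted p 0.0173, 7.09e-04, 0.00854 and 0.00152), 4 of 9 against 25.3% of all genes. With so few genes these shares set the scale and were not tested against each other. The median log2 fold change of the 9 was -0.12 for radiation, -0.22 for nab-paclitaxel and -0.10 for the combination, against -0.02, 0.04 and 0.00 over all genes tested.

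Comparisons with a shared control are not independent of each other. The libraries of the groups were apart, with no overlap, for 3 of the 9 genes for radiation against control, 4 for nab-paclitaxel and 4 for the combination, where 28.4%, 26.1% and 37.3% of all genes were apart. They were apart for 6 genes for the combination against radiation, 2 for the combination against nab-paclitaxel and 4 for radiation against nab-paclitaxel, where 40.5%, 20.9% and 42.5% of all genes were. Separations across more than a pair of groups, such as RIF1 or POLQ in all treated libraries against control, were not counted over all genes. Whether the effect of both treatments together differed from the sum of the single effects, all on the log2(FPKM + 1) scale, was tested as an interaction. Of the 9 genes 0 passed, as did 0% of all genes, and 0 of the 9 had an unadjusted p under 0.05. Over all genes 443 (3.26%) had an unadjusted p under 0.05 by limma, and 368 did by limma's voom, which also called 0. The interaction was 0.02 for RIF1 (95% interval -0.40 to 0.45), 0.17 for POLQ (-0.20 to 0.54) and -0.03 for XRCC6 (-0.28 to 0.23), so departures from additivity within those bounds could not be seen.

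**Figure D2:**
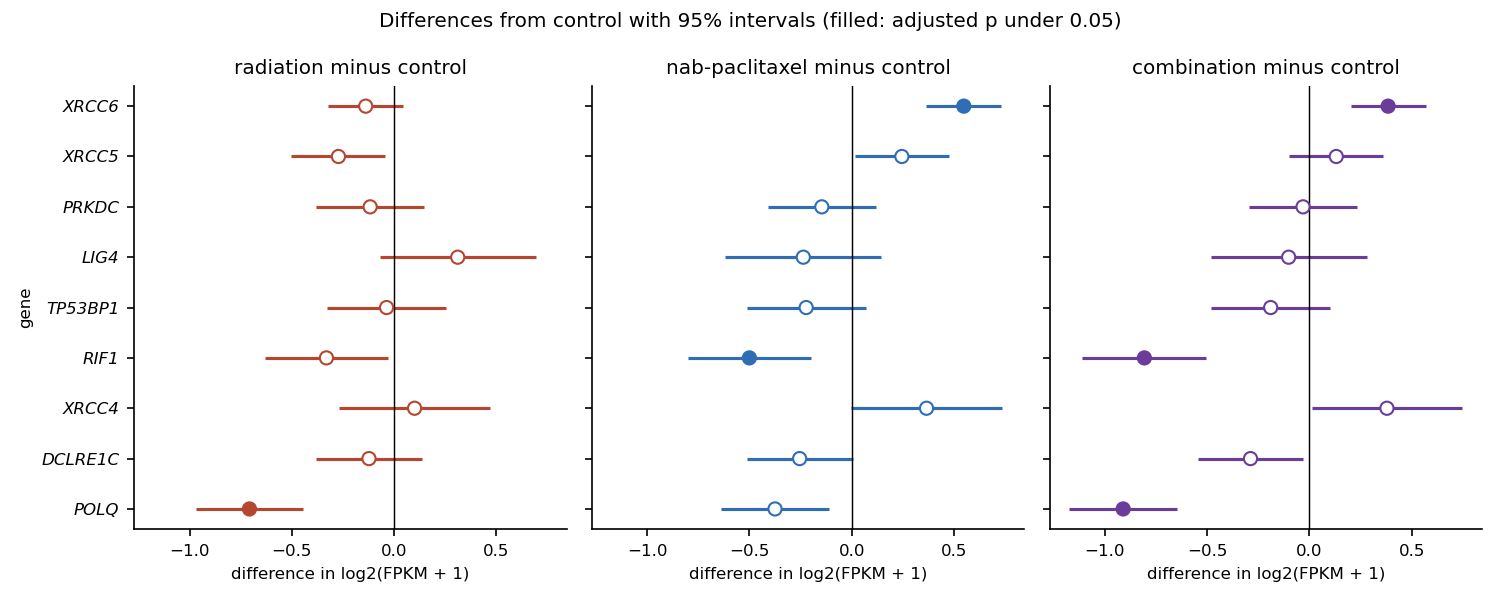
Log2 fold changes on log2(FPKM + 1) of the 9 tested end joining genes, each treatment minus control in its own panel, with lines for 95% intervals from limma and filled symbols where the adjusted p was under 0.05. POLQ lies at -0.71 for radiation and -0.91 for the combination, and XRCC6 at 0.55 for nab-paclitaxel.

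Markers of cycling cells moved with POLQ in part of the design. Of 14 S phase markers, 10 fell and 0 rose with radiation, 0 fell and 3 rose with nab-paclitaxel, and 11 fell and 1 rose with the combination, each against control. Of 14 G2 and M phase markers, 12 fell and 0 rose with radiation, 2 fell and 8 rose with nab-paclitaxel, and 6 fell and 0 rose with the combination. The called shares were 71.4%, 21.4% and 85.7% for S phase and 85.7%, 71.4% and 42.9% for G2 and M, against 5.93%, 8.82% and 22.9% of all genes. MCM3, a subunit of the replicative helicase, averaged 19.5 FPKM after radiation and 19.1 FPKM with the combination, against 34.5 FPKM in control. CDC20, which switches on the anaphase-promoting complex, averaged 37.8 FPKM with nab-paclitaxel, against 22.0 FPKM in control.

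Set side by side on the log2 scale, each centred on its mean over the libraries, the S phase markers had group medians of -0.36 after radiation, 0.44 with nab-paclitaxel, -0.24 with the combination and 0.21 in control. POLQ had -0.21, 0.19, -0.42 and 0.49 in the same order. POLQ and the S phase markers were thus both below control in the irradiated groups, while in nab-paclitaxel the markers were above control and POLQ was below it. RIF1 had 0.10, -0.01, -0.39 and 0.27, and XRCC6 had -0.32, 0.33, 0.21 and -0.20. The part of the cell cycle in the levels of these genes was not tested.

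**Figure D3:**
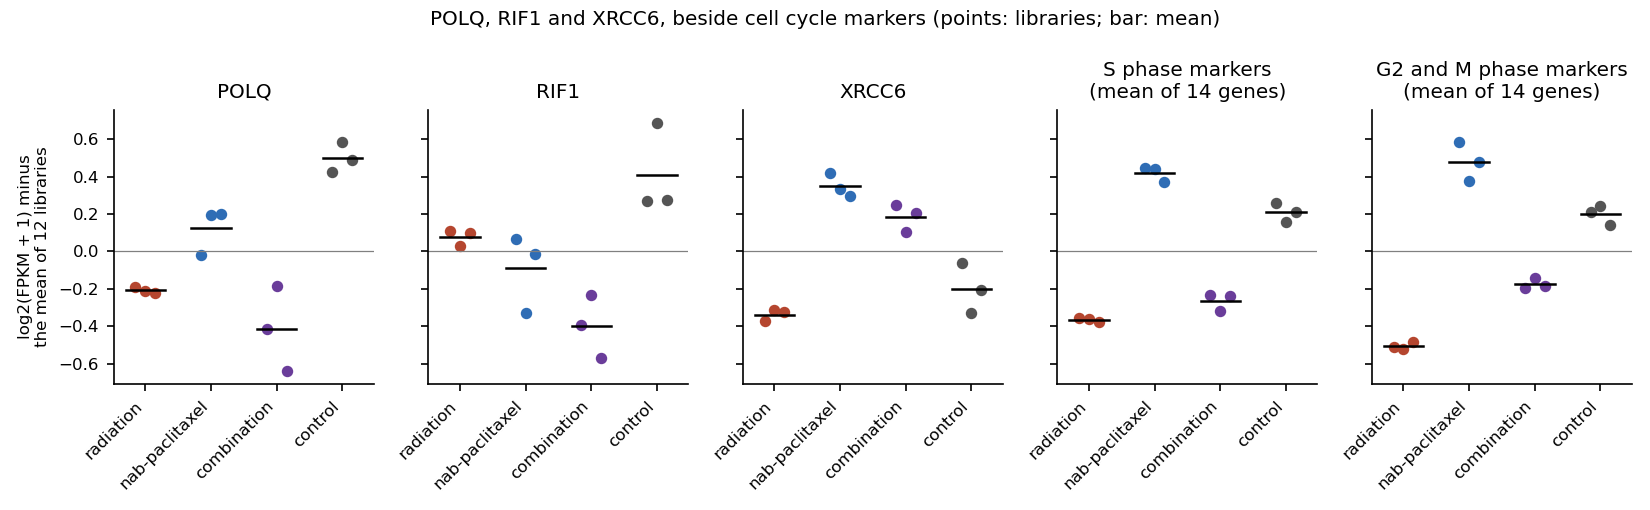
Log2(FPKM + 1) minus the mean of the 12 libraries for POLQ, RIF1, XRCC6 and the means of 14 S phase and 14 G2 and M phase markers, with points for libraries and bars for group means. The nab-paclitaxel libraries have the highest marker levels, 0.37 to 0.44 for S phase, while their POLQ levels of -0.02 to 0.20 lie below those of control, 0.43 to 0.58.

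Neighbouring genes of the same pathways were taken from lists of known factors. Of 10 tested accessory factors of classical end joining (13 in the list), 0 changed with radiation, 1 rose with nab-paclitaxel, and 1 rose and 1 fell with the combination. These are 0%, 10% and 20% of the tested list, against 5.93%, 8.82% and 22.9% of all genes, and the median log2 fold changes were -0.09, 0.09 and -0.04. TDP1, which removes protein adducts from DNA ends, averaged 3.13 FPKM with nab-paclitaxel and 3.47 FPKM with the combination, against 1.87 FPKM in control, log2 fold changes of 0.53 ± 0.11 (limma adjusted p = 0.0156) and 0.64 ± 0.11 (adjusted p = 0.00182). ERCC6L2 fell by 0.40 (adjusted p = 0.0366) with the combination. PAXX, a small relative of XRCC4, averaged 14.1 FPKM after radiation, against 22.8 FPKM with nab-paclitaxel (-0.64 ± 0.17, adjusted p = 0.0302).

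In the arm that recruits TP53BP1 and acts below it, 13 of 15 genes were tested. With radiation 0 rose and 1 fell, with nab-paclitaxel 3 rose and 0 fell, and with the combination 2 rose and 4 fell. The called shares were 7.69%, 23.1% and 46.2%, against 5.93%, 8.82% and 22.9% of all genes, and the medians were -0.07, 0.14 and -0.05. STN1, a CST subunit that fills in resected ends, averaged 15.8 FPKM with nab-paclitaxel and 21.4 FPKM with the combination, against 10.1 FPKM in control, log2 fold changes of 0.59 ± 0.10 (limma adjusted p = 0.00728) and 1.01 ± 0.10 (adjusted p = 9.89e-05). CTC1, another CST subunit, fell under the combination, at 4.70 FPKM against 6.35 FPKM in control (-0.37 ± 0.10, adjusted p = 0.0202). DYNLL1, a dynein light chain that binds TP53BP1, averaged 28.7 FPKM with nab-paclitaxel and 26.5 FPKM with the combination, against 18.3 FPKM in control, and both rises passed (adjusted p = 0.0122 and 0.00943). H2AFX, the histone phosphorylated at breaks, averaged 41.5 FPKM after radiation and 45.4 FPKM with the combination, against 59.8 FPKM in control, and both falls passed (adjusted p = 0.0145 and 0.0199).

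All 12 genes listed as partners of POLQ were tested, and 4 fell with radiation, 1 rose with nab-paclitaxel, and 1 rose and 3 fell with the combination. The called shares were 33.3%, 8.33% and 33.3%, against 5.93%, 8.82% and 22.9% of all genes, and the medians were -0.21, 0.15 and -0.16. FEN1, the flap nuclease, averaged 12.2 FPKM after radiation, against 19.3 FPKM in control (limma adjusted p = 0.0110), and fell by 0.64 on the log2 scale with the combination (adjusted p = 0.00315). LIG1, a replicative ligase, averaged 2.57 FPKM after radiation, against 4.43 FPKM in control (-0.60 ± 0.10, adjusted p = 0.00725). RAD9A, a subunit of the checkpoint clamp, averaged 5.58 FPKM after radiation and 4.43 FPKM with the combination, against 7.72 FPKM in control, and both falls passed (adjusted p = 0.0186 and 3.73e-04). PARP1, which binds breaks and acts upstream of POLQ, averaged 37.3 FPKM with nab-paclitaxel, against 28.0 FPKM in control (0.41 ± 0.09, adjusted p = 0.0246). FEN1 and LIG1 also act in replication.

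End resection, the step that commits a break away from classical joining, had 9 tested genes of 10. With radiation 3 fell, with the combination 4 fell, and with nab-paclitaxel 0 changed, while 0 rose in any of the 3. The called shares were 33.3%, 44.4% and 0%, against 5.93%, 22.9% and 8.82% of all genes. For the S phase markers they were 71.4%, 85.7% and 21.4% in the same order. The part of the cell cycle in the resection list was not tested. BRCA1 averaged 2.05 FPKM after radiation and 1.89 FPKM with the combination, against 4.70 FPKM in control, log2 fold changes of -0.90 ± 0.10 (limma adjusted p = 8.83e-04) and -0.98 ± 0.10 (adjusted p = 1.48e-04). The nuclease EXO1 and the helicase BLM fell in the same comparisons, EXO1 by 0.52 and 0.51 and BLM by 0.62 and 0.59. NBN, a subunit of the complex that starts resection, averaged 10.0 FPKM with the combination, against 16.9 FPKM in control (-0.70 ± 0.15, adjusted p = 0.00639). The medians of this list were -0.40 for radiation, -0.03 for nab-paclitaxel and -0.46 for the combination, against medians of -0.02, 0.04 and 0.00 over all genes tested.

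**Figure D4:**
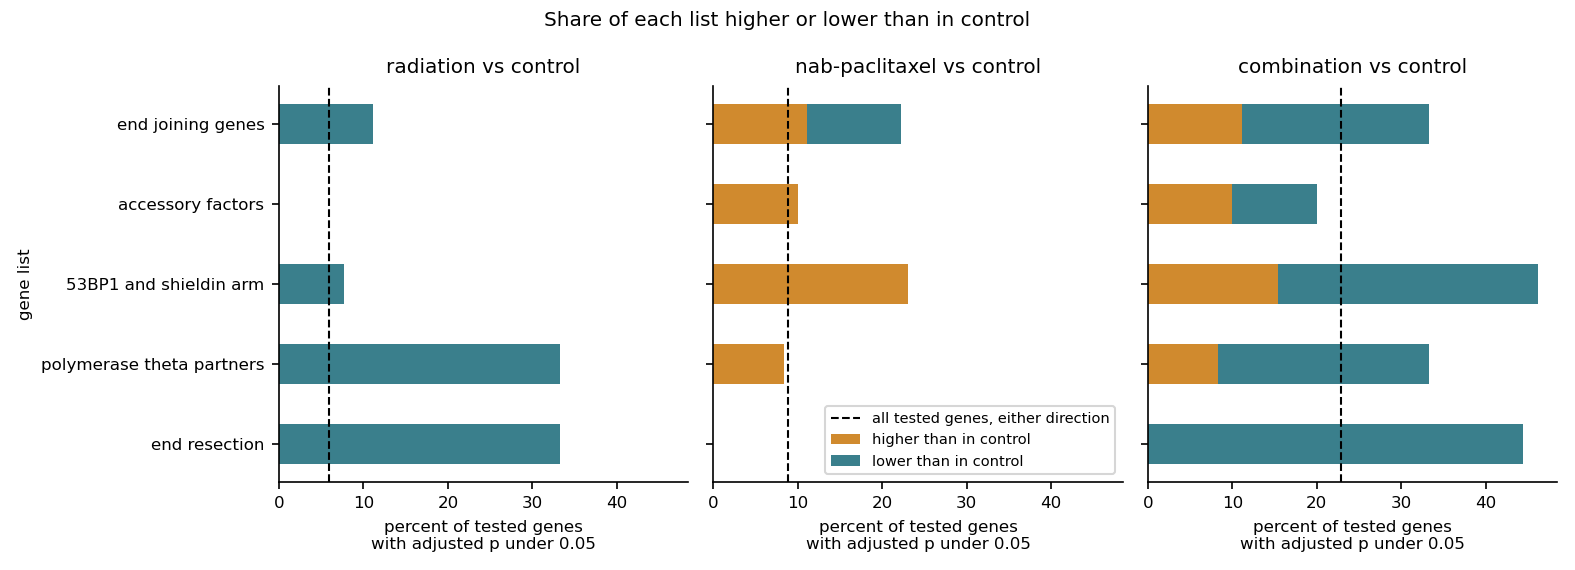
Percent of the tested genes of each list that were higher or lower than in control at an adjusted p under 0.05, as stacked bars with 1 panel per treatment, and the same share over all tested genes in either direction as a dashed line. In end resection 33.3% were lower with radiation and 44.4% with the combination, where the dashed lines stand at 5.93% and 22.9%. Of the polymerase theta partners 33.3% were also lower with radiation.

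For the 4 genes called by the F test, the genes of most similar pattern were found by the root mean square difference of centred log2(FPKM + 1) over the 12 libraries. For XRCC5 they were COPZ1 at 0.0427, TSN at 0.0579 and CCT6A at 0.0605, where XRCC5 itself varied with an SD of 0.23. For XRCC6 they were IFITM3 at 0.0538, PGAM1 at 0.0607 and HNRNPC at 0.0627, where XRCC6 had an SD of 0.30. For RIF1 they were UGGT2 at 0.0493, CASP8AP2 at 0.0569 and PRPF4B at 0.0628, where RIF1 had an SD of 0.34. For POLQ the nearest were farther away, AL158212.3 at 0.0975, PHLDB2 at 0.108 and SLC38A1 at 0.123, where POLQ had an SD of 0.38.

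In the deposited table (hg38) the genes lie on 8 chromosomes, and each is protein coding. XRCC6 (ENSG00000196419) is at chr22:41621119-41664048 and XRCC5 (ENSG00000079246) at chr2:216107464-216206303, both on the plus strand. PRKDC (ENSG00000253729) is at chr8:47773108-47960183, DCLRE1C (ENSG00000152457) at chr10:14897359-14954432 and LIG4 (ENSG00000174405) at chr13:108207439-108218368, all on the minus strand. XRCC4 (ENSG00000152422) is at chr5:83077498-83353787 on the plus strand and NHEJ1 (ENSG00000187736) at chr2:219075317-219160865 on the minus strand. TP53BP1 (ENSG00000067369) is at chr15:43403061-43510728 on the minus strand, RIF1 (ENSG00000080345) at chr2:151409883-151508013 on the plus strand and POLQ (ENSG00000051341) at chr3:121431427-121546641 on the minus strand. Opposite-strand neighbours overlap TP53BP1 (TUBGCP4, 6711 bases, 2.03 FPKM) and RIF1 (NEB, 22678 bases, 0.273 FPKM), and without strand their fragments cannot be told apart where they overlap.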

How the data were processed

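For 58735 genes in 12 libraries the authors deposited FPKM values, per the file headers, in 1 table. Per the labels' protocols the library kit was SMARTer mRNA-seq, and the submitters' processing notes name the build hg38. Aligner, counting method and strand setting were not given in the sources used here. Within each library FPKM times gene length fell on whole multiples of a single step for 100% of values (tolerance 0.05), and dividing by that step gave fragment numbers. The scale of the deposited FPKM matched a median-of-ratios size factor and not the library total.

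Genes were tested with limma 3.58.1 (R 4.3.3) on log2(FPKM + 1). The fit used a mean-variance trend, 1 spread over the 4 groups and all genes averaging 1 FPKM or more. Tests were two-sided and adjusted by Benjamini-Hochberg over 13609 genes in each comparison, with a threshold of 0.05. No replicate block was used, since the labels give replicate numbers no batch. Deviations of same-numbered libraries correlated above 0.1 in all 3 pairs only between combination and control (r = 0.233, 0.543 and 0.172). On simulated data for radiation against control (13470 genes), 65, 66 and 63 genes were given log2 changes of 0.5, 1 and 2. The fit called 7.69%, 74.2% and 100% of them. For the combination (13459 genes) it called 6.15%, 78.8% and 98.4%. The simulation changed 1 group at a time and far fewer genes than were called in the data. It used 1 fixed dispersion and held no deviating libraries. These shares therefore do not carry over to the data, where changes near 0.5 can still be missed.

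The genes, lists and tests were chosen with earlier results of these data known. Named were the 10 genes, from each other list and comparison up to 4 called genes ranked by p (the text gives some of them), and the 3 genes nearest in pattern to each gene called by the F test. Alternatives were another pseudocount, filter, scaling or unit, no trend, protein-coding genes, a replicate block, only the groups compared, and leaving out each library or the 3 deviating ones, which an earlier analysis of these data had named.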

Additional observations from a re-analysis of the deposited data

How the results depend on the processing

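No call among the end joining genes changed direction under any alternative. Over single genes and comparisons, 1407 values stayed on their side of the threshold, 37 newly passed and 38 no longer passed. The count of changed genes moved by more than 1.5 times as follows. Without a filter it was 1 for nab-paclitaxel against control, 1 for the combination against radiation, 0 for the combination against nab-paclitaxel and 2 for the F test. With a mean of at least 5 FPKM, where POLQ was not tested, it was 0 for radiation against control and 0 for the combination against nab-paclitaxel. TPM scaling gave 0 for the combination against nab-paclitaxel, quantile normalization 0 for the combination against radiation, and voom 4 for radiation against nab-paclitaxel. With only the groups compared it was 0 for nab-paclitaxel against control and 0 for the combination against nab-paclitaxel. With the replicate number as a block it was 1 for nab-paclitaxel against control, 1 for the combination against radiation and 0 for the combination against nab-paclitaxel, and the combination against control kept XRCC6, RIF1 and POLQ; 4 of 12 libraries correlated best with their own number. For scaling and voom the cause was not tested; the other settings test more or fewer genes, use fewer libraries or spend degrees of freedom on the block.

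With 1 library left out the counts ran from 1 to 2 for radiation, 1 to 3 for nab-paclitaxel and 3 to 4 for the combination against control, from 1 to 3 for the combination against radiation, 0 to 1 for the combination against nab-paclitaxel, 2 to 3 for radiation against nab-paclitaxel, and 3 to 5 for the F test. Without control 2, nab-paclitaxel 1 and combination 2 together they were 4 for radiation and 6 for the combination against control, 5 for the combination against radiation and 4 for radiation against nab-paclitaxel. The interaction gave 0 throughout.

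Over all genes the main counts were 807, 1200 and 3111 for radiation, nab-paclitaxel and the combination against control. With 1 library left out they ran from 320 (without radiation 2) to 1305 (without nab-paclitaxel 1), from 524 (without control 3) to 1181, and from 1964 (without combination 3) to 3926. With only the groups compared nab-paclitaxel gave 8, without a filter radiation gave 528 and the combination 1956, and without the 3 deviating libraries the counts were 2947, 1836 and 5049. The other comparisons had main counts of 1055 for the combination against radiation (218, without combination 3, to 4128 over the alternatives), 533 for the combination against nab-paclitaxel (93 to 1301), 2196 for radiation against nab-paclitaxel (951 to 4077), 3444 for the F test (1898 to 6227) and 0 for the interaction (at most 11). The share of nab-paclitaxel calls that were higher was 61.3%, against 48.3% after quantile normalization. Depth limits NHEJ1 most, with 7 to 20 fragments a library.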
